A study of Mus musculus with 14 samples.

Results

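The genes described here are 9 T-box transcription factor genes of mouse mesoderm and heart: Tbx1, Tbx2, Tbx3, Tbx4, Tbx5, Tbx6, Tbx15, Tbx18 and Tbx20. They were listed by name, with no threshold on their values, and were found by Ensembl identifier among the 36047 genes of the deposited tables. Each of the 9 had a row in both tables. At days 3 and 5, 7 of them passed the filter on low counts, with Tbx1 and Tbx18 falling below it, and at day 10 each of the 9 passed.

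T-box factors share a DNA-binding domain, the T-box, that recognises variants of one short motif. During gastrulation and organ formation they act in overlapping sets: Tbx6 in paraxial mesoderm, Tbx5 and Tbx20 in the forming heart, Tbx2 and Tbx3 as repressors that keep parts of the heart free of chamber muscle genes, and Tbx1 in the pharynx and second heart field. Tbx4, Tbx15 and Tbx18 are known from limb, trunk and epicardial mesenchyme.

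RNA sequencing libraries came from mouse embryoid bodies, which are clusters of differentiating embryonic stem cells grown by shaking, kept here under mesodermal conditions. The control line is iHA-Foxk1, whose genotype the labels write as iHAFoxk1 at days 3 and 5 (with the letters ND in the titles) and as Control at day 10, and the other line is a knockout (KO) of Foxk1, a forkhead factor gene. Both lines were sampled at days 3, 5 and 10, and the KO line also at day 10 with IWR1, a compound that dampens canonical Wnt signalling by stabilising Axin. There were 2 libraries in each of the 7 groups, and the labels do not say that they came from separate cultures, so p-values measure a spread that may be technical. The stem cells of both lines had been kept on irradiated mouse embryonic fibroblasts, which were depleted by plating before differentiation. Each genotype is 1 line, so what the loss of Foxk1 does and what else separates the lines cannot be told apart. In bulk samples, fewer cells of a type and less RNA per cell cannot be told apart either.

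Libraries held 10574194 to 11621032 estimated counts at days 3 and 5 and 34466708 to 52747273 at day 10. Levels are CPM, the count divided by the scaled library size. In a single library, 3 counts equal 0.254 to 0.298 CPM in the earlier table and 0.0621 to 0.0827 CPM in the day 10 table. Library values are given with library 1 first. Fold changes are log2 values ± SE from edgeR's quasi-likelihood test with 2 libraries a group, and the adjusted p is Benjamini-Hochberg over all genes tested, with 0.05 as the threshold for a call. Foxk1 fell in KO at day 3 (81.4 ± 6.97 against 16.3 ± 0.209 CPM, mean ± SD, n = 2; adjusted p = 2.22e-07) and at day 5 (134 ± 0.812 against 35.9 ± 3.26 CPM, adjusted p = 4.91e-07). At day 10 it was not called, with 72.5 ± 10.7 CPM in control, 56.6 ± 20.9 in the libraries labelled Foxk1 KO (adjusted p = 0.722 against control) and 39.7 ± 18.7 in those labelled Foxk1 KO with IWR1 (adjusted p = 0.186 against control). Directions at day 10 therefore rest on the labels.

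Upstream sequence was at hand for 5 of the 9 genes, Tbx1, Tbx4, Tbx6, Tbx18 and Tbx20, in RefSeq's annotation of GRCm38.p6. The 250 bases before the start are shown for Tbx6 and Tbx20, which were both lower in KO at day 3, and for the upstream start of Tbx1, the only one of the 6 promoters of these genes with a motif match. The strand shown is the gene's own, 5′ to 3′, and capitals mark the match.
Tbx6, chr7:126781233-126781482, plus strand: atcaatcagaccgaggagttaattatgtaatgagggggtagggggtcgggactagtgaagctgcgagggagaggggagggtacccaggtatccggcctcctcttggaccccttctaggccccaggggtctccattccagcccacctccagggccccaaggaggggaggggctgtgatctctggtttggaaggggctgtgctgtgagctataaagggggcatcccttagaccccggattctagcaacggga
Tbx20, chr9:24774304-24774553, minus strand: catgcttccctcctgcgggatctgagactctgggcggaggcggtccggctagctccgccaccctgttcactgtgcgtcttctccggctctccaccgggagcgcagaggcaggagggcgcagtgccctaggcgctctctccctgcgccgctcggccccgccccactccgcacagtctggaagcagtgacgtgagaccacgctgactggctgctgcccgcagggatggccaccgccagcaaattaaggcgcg
Tbx1, chr16:18590672-18590921, minus strand: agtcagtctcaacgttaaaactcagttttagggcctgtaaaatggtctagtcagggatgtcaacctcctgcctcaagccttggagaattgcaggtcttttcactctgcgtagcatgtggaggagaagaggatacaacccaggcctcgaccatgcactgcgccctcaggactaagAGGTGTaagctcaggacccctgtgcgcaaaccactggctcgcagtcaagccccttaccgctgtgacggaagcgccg
Both strands were searched for AGGTGT, the core of the T-box half-site, and for GTAAACA, a forkhead motif. AGGTGT occurs in 11.83% and GTAAACA in 3.166% of the 32851 promoter windows of this length. The Tbx1 match is AGGTGT, 76 to 71 bases before the start. These letters are a description of the window, not a binding site.

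Between day 3 and day 5, Tbx6 fell and Tbx2, Tbx3 and Tbx20 rose in control embryoid bodies. Different genes were set side by side per kilobase of exon, merged over all annotated transcripts of a gene. The transcripts in use may be shorter, so this order is rough, and it differs from that in CPM. In CPM, Tbx3 (44.9) stood above Tbx6 (14.6) in day 3 control, and Tbx20 (202) above Tbx3 (115) in day 5 control. Per kilobase, Tbx6 led in day 3 control (8.10 CPM per kb), just above Tbx3 (6.78 CPM per kb). The libraries of these genes did not overlap. The other 7 genes lay at or under 0.521 CPM per kb there. By day 5 Tbx3 (17.4 CPM per kb) and Tbx20 (16.8 CPM per kb) led, with overlapping libraries, followed by Tbx2 (11.5 CPM per kb). At day 10 Tbx20 led in control (12.2 CPM per kb), followed by Tbx2 (8.86 CPM per kb) and Tbx5 (8.31 CPM per kb), whose libraries overlapped.

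**Figure D1:**
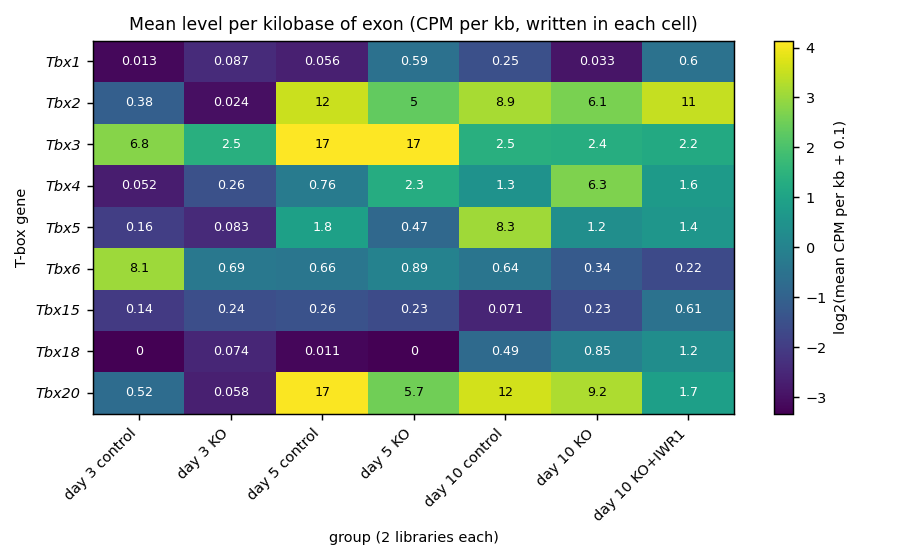
Mean level per kilobase of exon of the 9 T-box genes in the 7 groups of 2 libraries each, written in each cell in CPM per kb and coloured on a log2 scale. Tbx6 and Tbx3 led in day 3 control, Tbx3 led in day 3 KO at 2.50 CPM per kb, and Tbx2 led at day 10 with IWR1 at 11.1 CPM per kb.

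In KO the order differed on each day. Tbx3 led at day 3 (2.50 CPM per kb), ahead of Tbx6 (0.692 CPM per kb), and Tbx2 was last (0.0238 CPM per kb). At day 5 Tbx3 (17.5 CPM per kb) stood above Tbx20 (5.67 CPM per kb) and Tbx2 (4.98 CPM per kb), and the last pair overlapped. At day 10 Tbx20 (9.22 CPM per kb), Tbx4 (6.31 CPM per kb) and Tbx2 (6.11 CPM per kb) led the libraries labelled Foxk1 KO, each overlapping its neighbour in the order. With IWR1, Tbx2 (11.1 CPM per kb) led, and Tbx3 (2.21 CPM per kb), Tbx20 (1.73 CPM per kb) and Tbx4 (1.56 CPM per kb) followed, Tbx20 overlapping both of its neighbours. Days 3 and 5 and day 10 were deposited and scaled as separate tables, so levels were not tested between them.

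**Figure D2:**
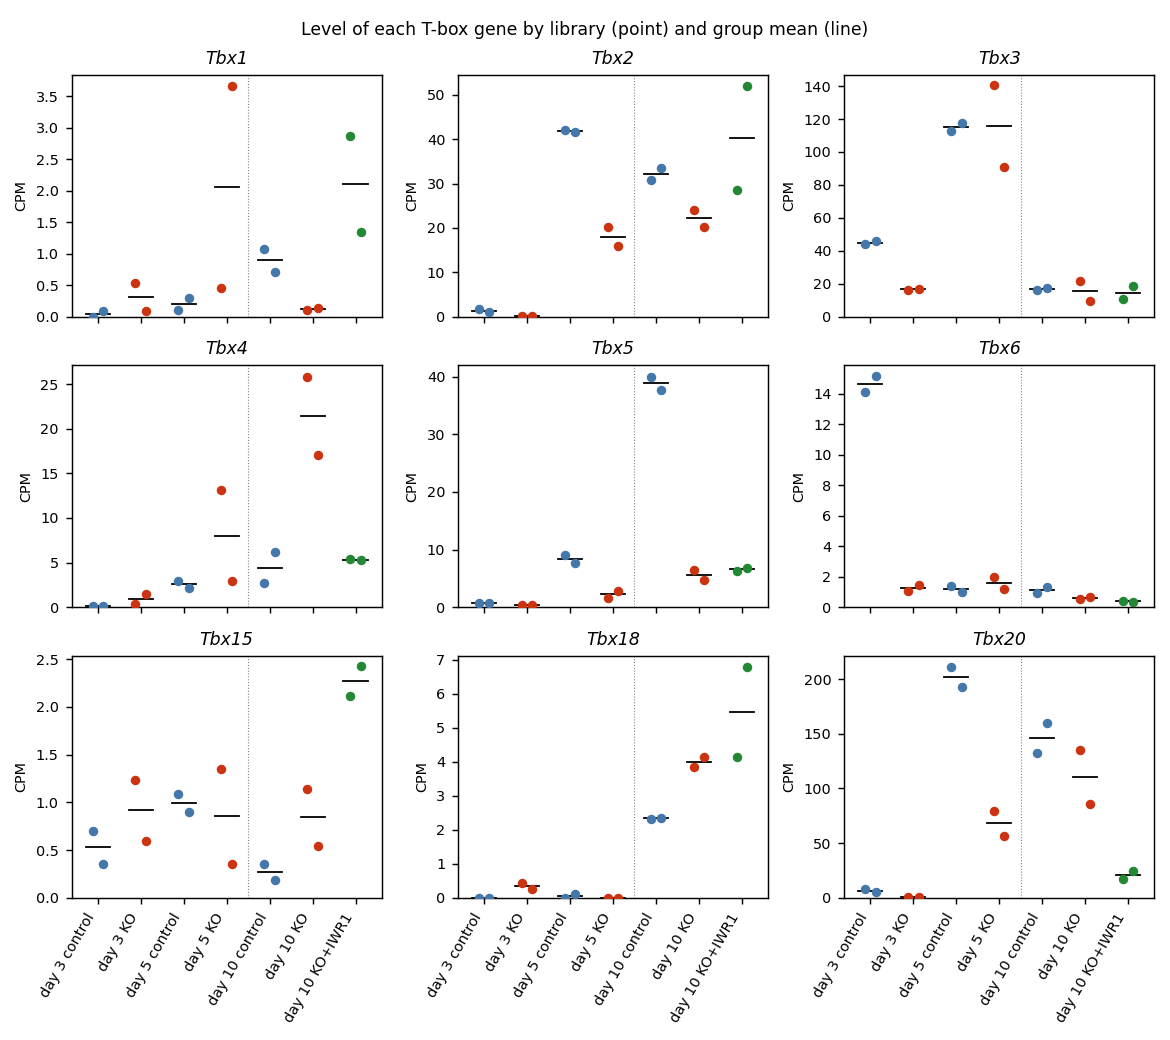
Level of each T-box gene in each of the 14 libraries (points) by group (lines mark group means of 2 libraries), in CPM on a linear axis of its own for each gene. Tbx6 stood at 14.1 and 15.1 CPM in day 3 control and at or below 1.99 CPM in each of the other libraries, and Tbx5 stood at 40.0 and 37.7 CPM in day 10 control and at or below 9.12 CPM elsewhere.

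At day 3, as mesoderm forms, Tbx6, Tbx2, Tbx20 and Tbx3 were lower in KO, and none of the 9 was called higher. This makes 4 of the 7 T-box genes tested, where 32.9% of the 14430 genes tested were called. The median log2 fold change of the 7 was -1.44, against -0.01 over all genes tested.

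Tbx6 (ENSMUSG00000030699.16, chromosome 7, 126781483 to 126785560), which commits cells to paraxial mesoderm and away from a neural fate, read 14.1 and 15.1 CPM in control and 1.06 and 1.44 CPM in KO. Both KO libraries thus lay far below both control libraries. The log2 fold change was -3.53 ± 0.30 (adjusted p = 3.21e-05). Presomitic markers moved with it: 5 of 6 tested fell, among them Dll3 and Mesp2, and their summed level was 127 to 129.7 CPM in control and 19.7 to 20.4 CPM in KO, with Msgn1 at 0 counts there. Mesp2 (368 counts in control, 7 in KO) passed the filter on low counts through the day 3 control libraries, which favoured its fall in advance. Neural progenitor markers read the other way: 3 of 4 tested rose and 0 fell, at sums of 216 CPM in control and 343 to 344 CPM in KO. The part of either list in the Tbx6 result was not tested.

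Tbx20 (ENSMUSG00000031965.15, chromosome 9, 24718138 to 24774303), needed for growth and patterning of the heart, read 7.57 and 4.93 CPM in control and 0.884 and 0.507 CPM in KO. The groups were well apart, at a log2 fold change of -3.16 ± 0.51 (adjusted p = 0.00454). Tbx2 (ENSMUSG00000000093.6, chromosome 11, 85832551 to 85841948), a repressor of chamber genes in the atrioventricular canal, read 1.76 and 0.969 CPM in control and 0.0884 and 0.0845 CPM in KO. These are 31 counts against 2, a ratio of 15.8 with an exact 95% counting interval of 4.02 to 136 (adjusted p = 0.00143). The interval covers counting error only. Markers of limb and lateral plate mesoderm fell in 4 of 6 cases, from sums of 80.7 to 88.8 CPM to sums of 7.52 to 9.13 CPM with Hand2 at 0 counts in KO and Pitx1 at 0 in both groups, and those of pharyngeal and second heart field mesoderm in 3 of 6, from 56.2 to 59.1 CPM to 12.8 to 14.1 CPM. Their part in the Tbx20 and Tbx2 results was not tested.

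Tbx3 (ENSMUSG00000018604.18, chromosome 5, 119670669 to 119684724), a close relative of Tbx2 that is also active in embryonic stem cells, read 43.8 and 46.0 CPM in control and 16.1 and 16.99 CPM in KO. It fell by 1.44 ± 0.22 on the log2 scale (adjusted p = 0.00432), the smallest of the 4 falls, and was the most abundant of the 9 in KO. Markers of naive pluripotent cells summed to 382 to 394 CPM in control and 379.7 to 407 CPM in KO, and 1 of 8 was called, lower.

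Tbx5 (ENSMUSG00000018263.11, chromosome 5, 119832668 to 119885219), a factor of the first heart field and forelimb, was barely present at day 3. It read 0.792 and 0.704 CPM in control and 0.442 and 0.338 CPM in KO, from 17 and 9 counts, and did not pass the test (adjusted p = 0.234). Tbx4 (ENSMUSG00000000094.12, chromosome 11, 85886422 to 85916097), known from hindlimb, lung mesenchyme and allantois, read 0.176 CPM in each control library and 0.354 and 1.44 CPM in KO (adjusted p = 0.261). Tbx15 (ENSMUSG00000027868.11, chromosome 3, 99240381 to 99354259), a factor of skeletal and limb mesenchyme, read 0.704 and 0.352 CPM in control and 1.24 and 0.592 CPM in KO (adjusted p = 0.456).

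Tbx18 (ENSMUSG00000032419.8, chromosome 9, 87702800 to 87731260), a marker of epicardium, sinus venosus and anterior somites, had 0 counts in control and 8 in KO at day 3. Set against a floor of 3 counts over the control group, the KO level was 2.62-fold higher, a ratio that leaves out the counting error of the 8. No test was made in the main fit. With no filter on low counts the log2 fold change was 5.00 ± 2.19 and did not pass (adjusted p = 0.122). Tbx1 (ENSMUSG00000009097.10, chromosome 16, 18580979 to 18590671), a regulator of pharyngeal mesoderm, had 1 count in control and 7 in KO, a ratio of 6.87 with an interval of 0.883 to 309.7 that includes no difference.

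Other genes around the T-box factors were lower in KO at day 3 as well, where 16.9% of all genes tested were called lower and 16% higher. Of the relatives, T (Brachyury), the founding T-box gene of the primitive streak, had means of 823 ± 37.6 CPM (control) and 65.8 ± 14.5 CPM (KO), a fall (-3.64 ± 0.41 on the log2 scale, adjusted p = 0.00374). Eomes, a T-box gene of streak and endoderm, fell from 651 ± 17.7 to 153 ± 17.8 CPM (adjusted p = 0.0126). Mga, a large T-box repressor, rose by 0.21 ± 0.06 on the log2 scale (adjusted p = 0.0187). Tbr1, Tbx10, Tbx19, Tbx21 and Tbx22 had too few counts to test at days 3 and 5, at most 19 over a group.

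Of 10 tested partner factors, cardiac transcription factors and Ripply cofactors that bind T-box proteins or act with them, 4 fell and 0 rose, with a median log2 fold change of -3.63. Gata6 read 58.2 ± 2.80 against 0.477 ± 0.0764 CPM and Gata4 47.0 ± 2.55 against 2.69 ± 0.942 CPM. Hand2 had 56 counts in control and 0 in KO. Of 12 signalling genes and regulators upstream of T-box genes, 7 fell and 0 rose (median -1.93), led by Wnt3a (9.64 ± 1.56 against 0.346 ± 0.0111 CPM), Foxc1 and Bmp2. Wnt3a had 2 counts in day 5 KO and 1 in day 5 control. It thus passed the filter on low counts through the day 3 control libraries, which favoured its fall in advance. Of 13 tested genes known as T-box targets, 6 fell and 2 rose (median -0.30). Mesp2, a target of Tbx6 in the forming somite, fell from 16.2 ± 1.87 to 0.302 ± 0.0514 CPM, Dll3, a Notch ligand of the same tissue, fell from 44.4 ± 0.433 to 6.31 ± 0.203 CPM, and the gap junction gene Gja1 rose from 379.8 ± 5.27 to 678 ± 4.60 CPM. Like Wnt3a, Mesp2 passed the filter on low counts through the day 3 control libraries, which favoured its fall in advance.

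**Figure D3:**
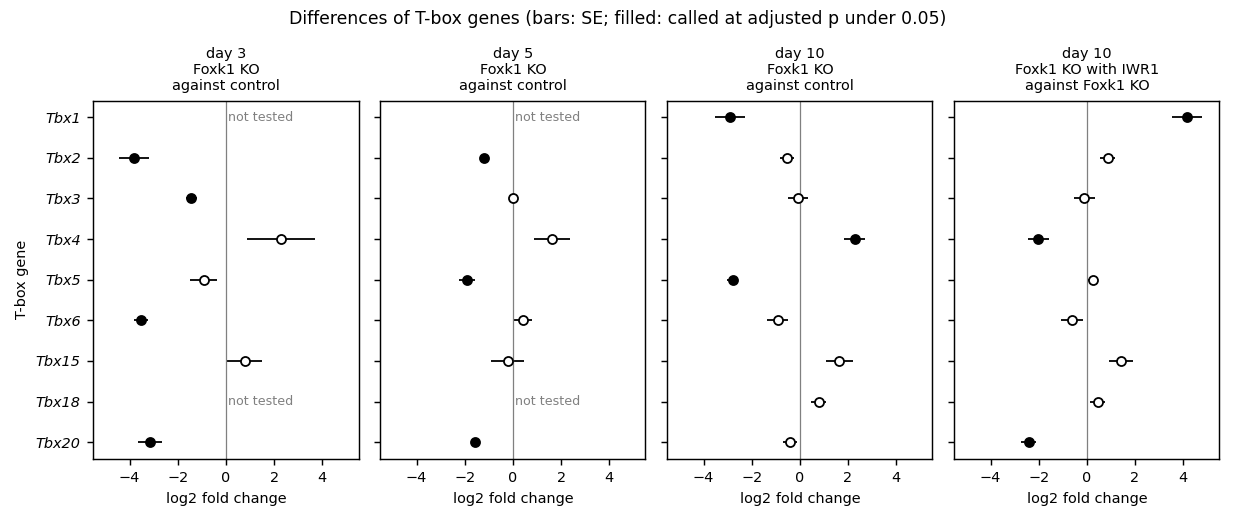
Log2 fold changes of the 9 T-box genes in 4 comparisons, KO against control on each day and IWR1 against KO at day 10, with SE as bars, filled points for called genes and no point where a gene was not tested. Tbx5 and Tbx20 lay below 0 in KO on each of the 3 days, though Tbx5 at day 3 and Tbx20 at day 10 were not called, and Tbx6 lay at -3.53 at day 3 and at 0.42 at day 5.

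By day 5 most of these genes had risen in both lines. In control, Tbx2, Tbx3, Tbx4, Tbx5 and Tbx20 rose and Tbx6 fell, 6 of 7 tested, where 60.8% of all genes tested were called, 30.6% higher and 30.2% lower. Tbx20 rose by 5.01 ± 0.24 (adjusted p = 6.89e-06), Tbx2 by 4.92 ± 0.23 (adjusted p = 3.31e-07) and Tbx5 by 3.47 ± 0.39 (adjusted p = 5.94e-05) on the log2 scale. Tbx3 rose by 1.36 ± 0.20 (adjusted p = 0.00124) and Tbx4 by 3.79 ± 1.22 (adjusted p = 0.0316), from 4 counts over the day 3 libraries to 52. The Tbx4 call was lost without any 1 of the 4 control libraries (adjusted p from 0.0697 to 0.133) and with no filter on low counts (adjusted p = 0.0880). Tbx6 fell by 3.61 ± 0.31 (adjusted p = 1.07e-05).

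In KO the same 5 genes rose, 5 of 7 tested, where 53.8% of all genes tested were called (28.3% higher and 25.5% lower), and none of the 7 was called lower. Tbx20 rose by 6.60 ± 0.35 (adjusted p = 1.73e-05), Tbx3 by 2.80 ± 0.22 (adjusted p = 1.02e-04) and Tbx5 by 2.47 ± 0.48 (adjusted p = 0.00196) on the log2 scale. Tbx2 went from 2 to 406 counts, a ratio of 208 with an exact counting interval of 57.3 to 1727. Tbx4 rose by 3.13 ± 0.84 (adjusted p = 0.0182), a value that ran from 1.66 without KO library 1 of day 5 to 4.45 without KO library 2 of day 3, and its call was lost without KO library 1 of day 3 (log2 fold change 2.46, adjusted p = 0.0913), with no filter on low counts (adjusted p = 0.0573) and in a fit of the KO libraries of days 3 and 5 alone (adjusted p = 0.0719). Without KO library 2 of day 5 it was 3.81. Tbx6 stood at 1.06 and 1.44 CPM at day 3 and 1.99 and 1.22 CPM at day 5 in KO, with overlapping libraries (adjusted p = 0.437).

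At day 5 Tbx2, Tbx5 and Tbx20 were lower in KO, 3 of the 7 tested, where 43.5% of all genes tested were called. The median log2 fold change of the 7 was -0.23, against 0.01 over all genes tested. Tbx20 read 211 and 193 CPM in control and 79.5 and 56.6 CPM in KO (log2 fold change -1.57 ± 0.18, adjusted p = 7.80e-04). Tbx2 read 42.0 and 41.5 CPM in control and 20.1 and 15.97 CPM in KO (-1.21 ± 0.16, adjusted p = 3.79e-04). Tbx5 read 9.12 and 7.65 CPM in control and 1.54 and 2.88 CPM in KO (-1.92 ± 0.34, adjusted p = 0.00171). In each of these 3 genes both KO libraries lay below both control libraries. This is easily reached with 2 libraries a group, and its share over all genes was not counted. Summed cardiomyocyte markers read 60.8 to 61.5 CPM in control and 38.7 to 38.8 CPM in KO, with 2 of 7 lower and 1 higher, and summed fibroblast markers 1252 to 1527 CPM in control and 146 to 516 CPM in KO, with 4 of 8 lower. Their part in these results was not tested.

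The KO libraries of day 5 differed from each other more than the day 5 control libraries did, and some T-box genes followed. A chi-square per degree of freedom between the libraries of the group was 20.4 in KO and 3.91 in control. It was 1.87 and 1.88 in the day 3 groups and, in the deeper libraries of day 10, 51.9 in control, 159.8 in those labelled Foxk1 KO and 148.9 with IWR1. Where 1 library of a group is left out, the other library has no replicate, and its spread is taken to be that of the other groups. Tbx3 read 113 and 118 CPM in control and 141 and 91.0 CPM in KO, on both sides of control (log2 fold change 0.01 ± 0.19, adjusted p = 0.981). With KO library 2 alone the value was -0.34 and with KO library 1 alone 0.28, so its sign depends on the library. Tbx4 read 2.97 and 2.19 CPM in control and 13.1 and 2.88 CPM in KO (1.62 ± 0.75, adjusted p = 0.124). The higher KO library alone gave 2.33 and the lower alone 0.15.

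Tbx1 had 4 counts in the control libraries of day 5 and 47 in KO, at 0.451 and 3.66 CPM, with KO library 2 holding most of them. Without the filter on low counts its log2 fold change was 3.30 ± 1.13 (adjusted p = 0.0508). Tbx6 read 1.39 and 0.994 CPM in control and 1.99 and 1.22 CPM in KO, with overlapping libraries (adjusted p = 0.388). Tbx15 stood at 1.09 and 0.894 CPM in control and 1.35 and 0.349 CPM in KO (adjusted p = 0.813). Tbx18 had 1 count in control and 0 in KO, which was not detectable as a difference at this depth.

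The gap between KO and control changed from day 3 to day 5 for Tbx6, Tbx2 and Tbx3, 3 of 7 tested, where 24.2% of all genes tested were called for this difference. For Tbx6 the day 5 log2 fold change minus that of day 3 was 3.96 ± 0.48 (adjusted p = 4.43e-04), with calls in each of the alternatives run. For Tbx2 it was 2.60 ± 0.68 (adjusted p = 0.0222), a fitted value that rests on 2 counts in day 3 KO. The Tbx2 call was lost without KO library 1 or 2 of day 3 (adjusted p = 0.106 and 0.115), control library 1 of day 3 (adjusted p = 0.0871) or control library 1 of day 5 (adjusted p = 0.0513), and in DESeq2 (adjusted p = 0.0731). For Tbx3 it was 1.45 ± 0.29 (adjusted p = 0.0156), and leaving out any 1 of the 4 libraries of day 3 ended the call (adjusted p from 0.0513 to 0.0658), as did leaving out control library 1 of day 5 (adjusted p = 0.0608) or using no filter on low counts (adjusted p = 0.0622).

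Tbx20 gave 1.59 ± 0.59 and did not pass (adjusted p = 0.104), but passed in DESeq2 (adjusted p = 0.00474), and it ranged from 1.32 to 1.78 with a single KO library of day 5. Tbx5 gave -0.99 ± 0.69 (adjusted p = 0.332) and Tbx4 -0.66 ± 1.58 (adjusted p = 0.802), and Tbx15 did not pass either (adjusted p = 0.518).

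At day 5 the genes around the T-box factors were split, where 21.9% of all genes tested were called higher and 21.7% lower. Eomes read 9.93 ± 4.23 against 90.8 ± 39.7 CPM in KO (log2 fold change 3.19 ± 0.46, adjusted p = 0.00565) and Mga rose by 0.25 ± 0.06 (adjusted p = 0.00651). T stood at 9.63 ± 3.81 against 32.8 ± 17.2 CPM (adjusted p = 0.0538). Of 10 partner factors, 5 fell and 1 rose (median -0.79), with Hand2, a heart and limb factor, at 96.6 ± 6.77 against 18.5 ± 1.62 CPM and Gata5 at 24.3 ± 3.89 against 2.04 ± 0.327 CPM. Of 13 target genes, 8 rose and 1 fell (median 1.52), led by Gja1, the cell cycle inhibitor gene Cdkn1a (54.8 ± 8.59 against 193 ± 17.3 CPM) and Sox2 (4.61 ± 0.483 against 35.6 ± 13.5 CPM), which Tbx6 is known to repress. Of 12 upstream genes, 5 rose and 1 fell (median 1.17), led by Rbpj, Aldh1a2 and Fgf8. Naive pluripotency markers rose in 7 of 8 cases, with sums of 51.2 to 54.7 CPM in control and 158 to 256 CPM in KO, and their part in these counts was not tested.

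At day 10 Tbx5 and Tbx1 were lower and Tbx4 higher in the libraries labelled Foxk1 KO, 3 of 9 tested, where 5.27% of the 17022 genes tested were called. The median log2 fold change of the 9 was -0.40, against 0.02 over all genes tested. Tbx5 read 40.0 and 37.7 CPM in control and 6.43 and 4.76 CPM in the libraries labelled Foxk1 KO, far apart, at -2.79 ± 0.24 (adjusted p = 0.00562). Cardiomyocyte markers fell with it: each of the 8 was lower, with a sum of 3132 to 3619 CPM in control and 66.3 to 151 CPM in the libraries labelled Foxk1 KO. Among the 8, Nppa passed the filter on low counts through the control libraries, which favoured its fall in advance. Of 5 conduction tissue markers 4 fell, from a sum of 115 to 123 CPM to one of 34.6 to 48.4 CPM. Their part in the Tbx5 result was not tested.

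Tbx20 read 132 and 159.8 CPM in control and 135 and 86.2 CPM in the libraries labelled Foxk1 KO. The groups overlapped, and the log2 fold change of -0.40 ± 0.29 did not pass (adjusted p = 0.544). No test was made of Tbx20 against Tbx5. Tbx2 read 30.7 and 33.5 CPM in control and 24.1 and 20.2 CPM (-0.54 ± 0.31, adjusted p = 0.417), and Tbx3 read 16.1 and 17.3 CPM in control and 21.9 and 9.73 CPM (-0.08 ± 0.43, adjusted p = 0.955), around the control values.

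Tbx4 read 2.68 and 6.14 CPM in control and 25.8 and 17.1 CPM in the libraries labelled Foxk1 KO, without overlap, at 2.28 ± 0.43 (adjusted p = 0.0362). This call was lost without any 1 of these 4 libraries, at log2 fold changes of 1.80 to 3.00 and adjusted p of 0.0506 to 0.166. Lateral plate and limb markers were called higher in 3 of 6 cases, Prrx1, Pitx1 and Msx1, with sums of 150.3 to 166 CPM in control and 261 to 272 CPM in the libraries labelled Foxk1 KO. Fibroblast markers summed to 7803 to 8408 CPM in control and 20599.8 to 26464 CPM, with 2 of 8 called higher, and epicardial and mesothelial markers to 173 to 175 CPM and 602 to 747 CPM, with 4 of 8 called higher. Their part in the Tbx4 result was not tested. Tbx2 and Tbx4 lie 44.5 kb apart on chromosome 11, with the coding gene Gm11444 between them. Tbx2 read below control at day 10 but did not pass (adjusted p = 0.417).

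Tbx1 read 1.07 and 0.715 CPM in control and 0.0970 and 0.137 CPM in the libraries labelled Foxk1 KO, from 73 and 9 counts, at -2.92 ± 0.62 (adjusted p = 0.0495). It too was lost without any 1 of these 4 libraries (adjusted p from 0.130 to 0.243). Tbx18 read 2.31 and 2.36 CPM in control and 3.86 and 4.13 CPM (0.77 ± 0.32, adjusted p = 0.251). Tbx15 read 0.350 and 0.185 CPM in control and 1.14 and 0.547 CPM (1.64 ± 0.55, adjusted p = 0.155), and Tbx6 0.956 and 1.35 CPM in control and 0.558 and 0.656 CPM (-0.92 ± 0.43, adjusted p = 0.308). In each of these 3 genes the libraries of the groups did not overlap, but the difference did not pass. With 2 libraries a group, a lack of overlap is easily reached, and its share over all genes was not counted.

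Among the genes around them at day 10, where 1.92% of all genes tested were called higher and 3.35% lower, none of the 5 tested T-box relatives passed, with adjusted p of 0.233 or above. Of 11 partner factors 1 fell and 0 rose (median -0.28): Nkx2-5, a homeobox factor that binds Tbx5 and Tbx20, read 17.1 ± 2.24 CPM in control and 0.340 ± 0.138 CPM in the libraries labelled Foxk1 KO (-5.65 ± 0.40, adjusted p = 0.00443). Of 16 target genes 6 fell and 1 rose (median -0.84). Ryr2, the calcium release channel of heart muscle, read 47.2 ± 13.3 against 5.01 ± 1.52 CPM, and Nppa, the natriuretic peptide gene activated by Tbx5 and repressed by Tbx2 and Tbx3, 1.88 ± 0.414 against 0.0911 ± 0.0259 CPM. Nppa had 150 counts in control, 7 in the libraries labelled Foxk1 KO and 24 with IWR1. It thus passed the filter on low counts through the control libraries, which favoured its fall in advance. Of 12 upstream genes 3 fell and 1 rose (median -0.53), with Foxa2 and Shh lower and Aldh1a2, which makes retinoic acid, higher.

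**Figure D4:**
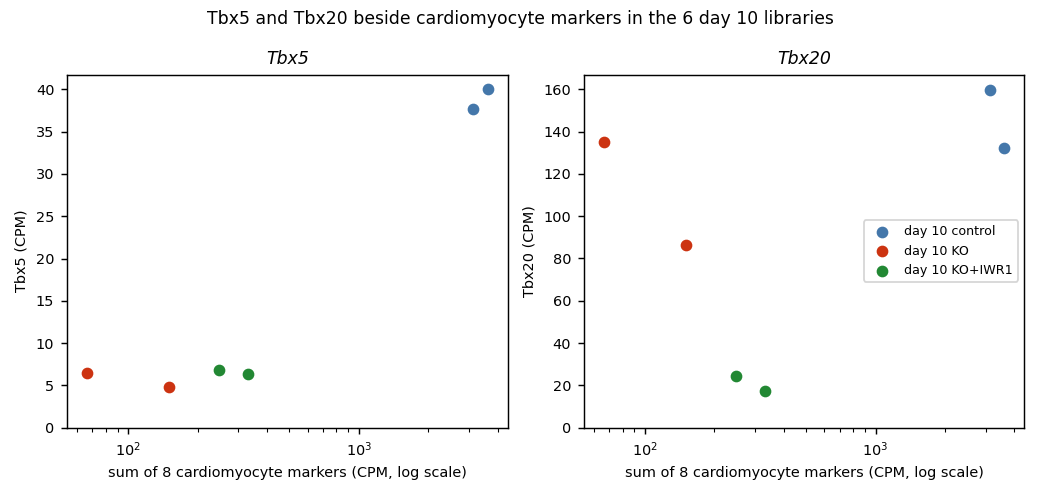
Levels of Tbx5 and Tbx20 in the 6 libraries of day 10 (points, CPM, linear axis) against the summed level of 8 cardiomyocyte markers in the same library (CPM, log axis). Tbx5 was at 40.0 and 37.7 CPM where summed cardiomyocyte markers were 3132 to 3619 CPM, in the control libraries, and at or below 6.86 CPM in the other 4, while Tbx20 overlapped between control and the libraries labelled Foxk1 KO.

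With IWR1, compared with the libraries labelled Foxk1 KO, Tbx1 was higher and Tbx4 and Tbx20 were lower, 3 of 9 tested, where 13.9% of all genes tested were called. The median of the 9 was 0.23 on the log2 scale, against -0.01 over all genes tested. Tbx1 read 2.88 and 1.35 CPM with IWR1 and 0.0970 and 0.137 CPM without, at 4.16 ± 0.61 (adjusted p = 0.0145), and at 3.505 without IWR1 library 1 (adjusted p = 0.0482). Markers of pharyngeal and second heart field mesoderm were called higher in 4 of 6 cases, among them Isl1, Foxc2 and Eya1, and lower in 1 (Hand2), while their sum was 139 CPM in each library labelled Foxk1 KO and 119.7 to 135 CPM with IWR1. Neural markers moved in the same libraries: 5 of 6 neural progenitor markers rose, from sums of 40.4 to 70.3 CPM to 147 to 189.9 CPM, and both tested motor neuron markers rose, from sums over 4 genes of 0.164 to 0.364 CPM to 15.5 to 20.6 CPM. Isl1 and, among the genes below, Shh, Foxa2 and Sox2 are also genes of the neural tube. The part of these lists in the Tbx1 result was not tested.

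Tbx20 read 17.2 and 24.3 CPM with IWR1 and 135 and 86.2 CPM without, clearly apart, at -2.41 ± 0.31 (adjusted p = 0.0114). Tbx4 read 5.40 and 5.24 CPM with IWR1, at -2.01 ± 0.43 (adjusted p = 0.0315). The Tbx4 call was lost without KO library 1 (adjusted p = 0.0951) and without IWR1 library 1 or 2 (adjusted p = 0.125 and 0.0680). Fibroblast markers were lower in 6 of 8 cases and higher in 1, at sums of 1302 to 3487 CPM with IWR1, and liver and visceral endoderm markers were lower in 7 of 8, at 61.4 to 154.7 CPM with IWR1 and 598 to 1472 CPM without. Their part in these results was not tested.

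Tbx5 read 6.31 and 6.86 CPM with IWR1, overlapping the untreated libraries (0.23 ± 0.23, adjusted p = 0.501). Cardiomyocyte markers rose in 2 of 8 cases, Myl7 and Myl4, to sums of 248 to 332 CPM. Tbx2 read 28.5 and 52.0 CPM with IWR1 (0.86 ± 0.31, adjusted p = 0.104), Tbx15 2.11 and 2.43 CPM (1.42 ± 0.49, adjusted p = 0.0984) and Tbx18 4.14 and 6.78 CPM (0.45 ± 0.32, adjusted p = 0.356). Each of these 3 lay above both untreated libraries without passing, though Tbx2 passed in DESeq2 (adjusted p = 0.0443) and with no filter on low counts (adjusted p = 0.0368). Such a lack of overlap is easily reached with 2 libraries a group, and its share over all genes was not counted. For Tbx18 the nearest libraries all but met, at 4.14 CPM with IWR1 and 4.13 CPM without. Tbx3 read 10.6 and 18.7 CPM (-0.11 ± 0.43, adjusted p = 0.870) and Tbx6 0.435 and 0.358 CPM (-0.60 ± 0.45, adjusted p = 0.383).

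Among the related genes, T rose with IWR1 from 1.07 ± 1.07 to 16.7 ± 9.36 CPM (3.98 ± 0.85, adjusted p = 0.0316). Tbx10 had 1 count in the libraries labelled Foxk1 KO, 8 in control and 54 with IWR1. It passed the filter through the IWR1 libraries, so no test of it is given. Here 5.77% of all genes tested were called higher and 8.08% lower. Of 11 partner factors 3 rose and 5 fell (median -0.54): Ripply3, a cofactor that turns Tbx1 into a repressor, rose from 1.21 ± 0.375 to 6.55 ± 1.98 CPM, and Hand1 and Hand2 fell. Of 12 upstream genes 5 rose and 0 fell (median 0.78): Foxa2, Shh, Foxc1 and Foxc2, which are known to act upstream of Tbx1, and Wnt3a. Foxa2 rose from 2.68 ± 0.847 to 17.2 ± 5.13 CPM, Shh from 3.14 ± 1.66 to 16.3 ± 6.29 CPM and Wnt3a from 0.222 ± 0.0732 to 10.7 ± 7.96 CPM. Of 16 target genes 3 rose and 2 fell (median 0.27), with Sox2 and Dll3 among those that rose.

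Against control, the IWR1 libraries were lower in Tbx5 and Tbx20 and higher in Tbx15, 3 of 9 tested, where 9.12% of all genes tested were called, 2.99% higher and 6.13% lower. The median of the 9 was 0.27, against 0.02 over all genes tested. This comparison shares its control libraries with that of KO and its IWR1 libraries with the one above. Tbx5 differed by -2.56 ± 0.24 (adjusted p = 0.00496) and Tbx20 by -2.81 ± 0.31 (adjusted p = 0.00644). In the same contrast cardiomyocyte markers were lower in 7 of 8 cases (248 to 332 CPM with IWR1, 3132 to 3619 CPM in control), conduction markers in 3 of 5, and liver and visceral endoderm markers in 5 of 8. Their part in these results was not tested. Among the 8 cardiomyocyte markers, Nppa passed the filter on low counts through the control libraries. Tbx15 differed by 3.06 ± 0.54 (adjusted p = 0.0234), a call that was lost without IWR1 library 1 (adjusted p = 0.0713) or control library 1 or 2 (adjusted p = 0.0948 and 0.145). Tbx18 (1.22 ± 0.32, adjusted p = 0.0644) and Tbx6 (-1.53 ± 0.44, adjusted p = 0.0780) did not pass, though Tbx18 did in DESeq2 (adjusted p = 0.0146) and with no filter on low counts (adjusted p = 0.0273). Nor did Tbx1 (1.24 ± 0.50, adjusted p = 0.147), Tbx2, Tbx3 and Tbx4 pass (adjusted p from 0.476 to 0.775).

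The genes nearest to each T-box gene in pattern were read as a description, by Pearson's r of log2(CPM + 1) with protein-coding genes of at least 5 CPM. With 8 or 6 libraries in groups of 2 and 10875 to 11570 candidate genes, an r near 1 is easily reached. Over the 8 libraries of days 3 and 5, Tbx2 and Tbx20 shared a neighbour, Bmp5, a BMP ligand (r = 0.997 with each), and Tbx6 was nearest to Exoc6b (r = 0.994). Over the 6 libraries of day 10, Tbx5 was nearest to Adora1, Myom1, a sarcomere gene, and Slc16a12 (r = 0.998 to 0.999). Tbx20 was nearest to mt-Nd2, Prpf39 and mt-Nd1 (r = 0.995 to 0.996), of which mt-Nd2 and mt-Nd1 are mitochondrial genes. Tbx1 was nearest to Sinhcaf, Tbx4 to Slc25a32, Tbx15 to Xkr5 and Tbx18 to Ptms (r = 0.993 to 0.997).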

How the data were processed

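The values are estimated counts per gene from paired-end libraries, deposited by the authors as whole numbers in a table of days 3 and 5 and a table of day 10, and traced to kallisto 0.46.2 and mm10 per the submitters' processing notes. The step from transcripts to genes is not stated. The labels' protocols name both a plain and a stranded kit, so use of strand is not settled. Tbx3, Tbx15 and Tbx18 overlap annotated genes on the opposite strand that have no row in the tables, and whether their reads were counted was not tested. Symbols and mm10 positions are those of GENCODE vM21.

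Groups and replicate numbers were taken from the labels. A single model per table was made in edgeR 4.0.16 (R 4.3.3) after filterByExpr by group and TMM scaling, and contrasts were tested two-sided by robust quasi-likelihood F with Benjamini-Hochberg adjustment. Days 3 and 5 gave 14430 genes over 8 libraries (4 residual degrees of freedom), and day 10 gave 17022 over 6 (3). The 8 contrasts set KO beside control on 3 days, IWR1 beside KO and beside control, day 5 beside day 3 within a line (2 contrasts), and the KO effect of day 5 beside that of day 3. The fit was tested on simulated counts. CPM and levels per kb of exon were computed on TMM-scaled sizes. The SE is the absolute log2 fold change over the square root of F.

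The members, the lists of relatives, partners, targets, upstream genes and cell type markers, and the tests were chosen with earlier results of these data known. Genes named are the members, the T-box relatives, up to 3 genes of each other list with the smallest unadjusted p in a contrast, and the 3 genes most like each member. Markers and further called list genes were named after their values were seen. Some list genes that meet the rule are not reported here. Replicate numbers were not taken as pairs, since differences between libraries 1 and 2 correlated from -0.32 to 0.24 across groups and the labels give the numbers no meaning. Alternatives were DESeq2 1.42.0, its size factors in edgeR, no filter, a minimum count of 10, fits of the compared groups alone, a replicate block and leaving out each library. Floors and counting intervals cover counting error only.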

Additional observations from a re-analysis of the deposited data

Results flagged for a closer look

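For 3 genes the difference between KO and control at day 5 was itself tested against that at day 3 and differed. For Tbx6 the log2 fold change moved by 3.96 (adjusted p = 4.43e-04, edgeR's quasi-likelihood test), from -3.53 at day 3 to 0.42 at day 5. Its level fell to near that of KO in day 5 control, at 1.39 and 0.994 CPM. For Tbx2 it moved by 2.60 (adjusted p = 0.0222), a value that rests on 2 counts in day 3 KO. For Tbx3 it moved by 1.45 (adjusted p = 0.0156), from -1.44 to 0.01, with the KO libraries of day 5 at 141 and 91.0 CPM on both sides of control.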

How the results depend on the processing

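Of 62 comparisons of a T-box gene that were tested, 30 were called, and 22 of these kept their call in each alternative run, while 8 lost it in at least 1. The 8 are Tbx1 at day 10, Tbx4 at day 10, with IWR1 against KO and from day 3 to day 5 in each line, Tbx15 with IWR1 against control, and the differences between KO effects of Tbx2 and Tbx3. Over all results, 571 alternative values kept direction and side of the threshold, 35 lost a call, 10 gained one and 16 changed sign.

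None of the comparisons that changed sign was called in edgeR's main test. Tbx3 at day 5 became -0.0055 with no filter, -0.0071 with the replicate block, -0.023 without control library 1 and -0.34 without KO library 1, against 0.28 without KO library 2. The others changed sign when 1 library was left out, over these ranges of log2 fold change. Tbx15 ran from -1.48 to 0.43 at day 5 (without KO library 1 or 2), and from day 3 to day 5 in KO from -1.35 to 0.54 (without KO library 1 or 2 of day 5) and 0.51 without KO library 1 of day 3. At day 10, Tbx3 ran from -0.82 to 0.39 in KO against control (without KO library 1 or 2), from -0.66 to 0.17 with IWR1 against control (without IWR1 library 2 or 1), and from -0.58 to 0.61 with IWR1 against KO (without KO library 2 or 1), with 0.24 without IWR1 library 1. With IWR1 against control, Tbx2 ran from -0.17 to 0.70 (without IWR1 library 2 or 1) and Tbx4 from -0.21 to 0.99 (without control library 1 or 2). The Tbx4 difference between KO effects ran from -2.13 without KO library 1 of day 5 to 0.66 without KO library 2 of day 3, with 0.017 without KO library 2 of day 5. Tbx6 from day 3 to day 5 in KO ran from -0.036 to 0.63 (without KO library 1 or 2 of day 5).

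Counts of all genes called moved more. At day 3, 4741 became 2991 with DESeq2 and 7334 in a fit of the compared groups alone. The difference between KO effects went from 3496 to 2317 with DESeq2. At day 10, 897 for KO against control became 2027 with DESeq2 and 1737 with no filter. IWR1 against KO went from 2358 to 4308 with DESeq2, 3697 with no filter, 1001 in the compared groups alone and 1233 with the replicate block, and IWR1 against control from 1553 to 3456, 3093 and, with the replicate block, 948. With the replicate block the 3 T-box genes called at day 10 in KO became 1, Tbx5. The causes were not tested.

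Leaving out 1 library at a time, the T-box genes called were 4 to 4 at day 3, 3 to 5 at day 5, 1 to 1 at day 10 in KO (Tbx5), 2 to 3 in each IWR1 comparison, 5 to 5 from day 3 to day 5 in control, 4 to 6 in KO, and 1 to 4 for the difference between KO effects. All genes called were 2520 to 2572, 4030 to 7565, 63 to 838, 548 to 3056 with IWR1 against KO, 280 to 2145 against control, 7005 to 7439, 5619 to 8759 and 2049 to 5621 in the same order. Without KO library 1 of day 5, the T-box counts at day 5 and from day 3 to day 5 in KO include Tbx1, untested in the main fit. There it passed the filter through 42 counts in KO library 2 of day 5, so these upper ends do not measure stability. Depth limits Tbx1 and Tbx18 at days 3 and 5, where 8 counts or fewer stood in 7 of their 8 group totals. Another scaling moved the median of all genes by 0.03 or less.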
